A study of Rattus norvegicus with 12 samples.

Results

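Phenylephrine (PE) and endothelin-1 (ET-1), agonists of different receptors on heart muscle cells, were compared here while the BET proteins were blocked with JQ1. The 4 libraries of this comparison were chosen by their labels from the 12 of the study: 2 of cells given PE with JQ1 and 2 of cells given ET-1 with JQ1. Primary cardiomyocytes came from Sprague-Dawley rats of 1 to 3 days and were grown in serum and then in serum-free medium, with the nucleoside AraC, which acts against dividing cells, until 24 h before treatment. PE was given at 10 µM and ET-1 at 100 nM, each for 24 h with JQ1 at 1 µM. The same agonists with DMSO in place of JQ1 gave 4 further libraries, which share none with the comparison under JQ1. Vehicle (acetic acid) with JQ1 or with DMSO is quoted as a level only. Every group held 2 libraries, numbered replicate 1 and 2. The labels do not say whether the 2 came from separate cultures or litters, so p-values measure the spread between these libraries, which may be technical. The question was whether differences between the receptors appear or vanish when BET proteins are blocked.

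PE acts mainly on alpha-1 adrenergic receptors and ET-1 on the endothelin receptors ETA and ETB. Both couple through Gq to phospholipase C, calcium release and protein kinase C, and both make neonatal cardiomyocytes grow. BET proteins bind acetylated histones and bring the elongation kinase P-TEFb (CDK9 with cyclin T) to promoters and enhancers. JQ1 occupies their bromodomains and displaces them from chromatin.

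Gene values are FPKM (fragments scaled to transcript length and to the library's total) summed over a gene's transcripts and rescaled per library, and log2 differences are PE minus ET-1 on log2(rescaled FPKM + 0.5), so changes of low genes are understated. The 12 libraries held 2.341 to 2.965 gigabases of covered sequence. Cardiomyocyte markers were present as labelled: 11 of 12 listed were in the files and all 11 were above 1 rescaled FPKM, and their summed level was 21240 and 24110 with ET-1 and JQ1 and 25680 and 27360 with PE and JQ1. The libraries numbered 1 carried more fibroblast marker RNA than those numbered 2. With JQ1, the fibroblast sum was 519.9 and 114.8 with ET-1 (replicate 1, then 2, as throughout) and 651.5 and 127.6 with PE. Genes under 400 nt took 10.2 and 16.9% of bases with ET-1 and JQ1 and 8.52 and 13.3% with PE and JQ1, higher with ET-1 in both replicates. In such bulk samples, fewer cells of a type and less RNA per cell cannot be told apart.

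Few genes separated the agonists under JQ1. Among 13793 genes tested with limma and Benjamini-Hochberg adjustment, 2 (0.0145%) rose with PE relative to ET-1 and 1 (0.00725%) fell: Cx3cl1 and Cdca8 were higher and Nxnl2 was lower. At an unadjusted p under 0.05, 733 genes (5.31%) were higher and 517 (3.75%) lower with PE. Without PE and JQ1 replicate 1 that split was 338 higher and 406 lower. In both replicate pairs 5091 genes (36.9%) were higher and 4223 (30.6%) lower. The gene lists below were chosen with earlier results of these data known, so their counts beside these shares are descriptions. A difference of at least 1.5-fold in both pairs was seen for 45 genes in each direction (0.326% each). Without the replicate number as a block no gene was called with JQ1, and 471 had an unadjusted p under 0.05. Leaving out any of the 4 libraries also ended all 3 calls, with adjusted p-values (limma) of 0.0971 to 0.279, and left 0 to 2 genes called in all.

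Cx3cl1 encodes fractalkine, a membrane-bound chemokine, and lies on chromosome 19 from 10644244 to 10653800 (rn6, minus strand). With JQ1 it stood at 1.45 and 1.35 rescaled FPKM with ET-1, at 3.63 and 3.48 with PE and at 1.22 and 1.46 with vehicle. The ET-1 libraries lay among the vehicle libraries, and both PE libraries lay above them. Its log2 difference was 1.09 ± 0.11 (SE, n = 2 per group; limma, adjusted p = 0.0433). Without JQ1 the values were 3.57 and 2.89 with ET-1, 4.29 and 4.14 with PE and 3.37 and 3.40 with vehicle, so that PE with JQ1 reached the range of the DMSO libraries. There the difference was 0.34 ± 0.11 (limma, adjusted p = 0.899). The change in that difference was 0.75, with a 95% interval of 0.39 to 1.11, and did not pass the test across genes (limma, adjusted p = 1).

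Cdca8 encodes borealin, a subunit of the chromosomal passenger complex that corrects chromosome attachment in mitosis. It lies on chromosome 5 from 142911305 to 142933526 (rn6). Its level with JQ1 was 7.76 and 8.78 with ET-1, 12.8 and 12.8 with PE and 13.3 and 14.3 with vehicle. Here PE was close to vehicle and the ET-1 libraries were the low ones. The log2 difference was 0.60 ± 0.06 (SE, n = 2 per group; limma, adjusted p = 0.0433). Without JQ1 the level was 29.2 and 30.2 with ET-1 and 33.2 and 34.1 with PE, a log2 difference of 0.18.

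Nxnl2 encodes a thioredoxin-like protein and lies on chromosome 17 from 14053896 to 14058642 (rn6). With JQ1 it stood at 8.97 and 6.75 with ET-1, 5.17 and 3.81 with PE and 10.9 and 8.05 with vehicle. Within each replicate number PE was the lowest of the 3 treatments. The log2 difference was -0.74 ± 0.06 (SE, n = 2 per group; limma, adjusted p = 0.0313). Without JQ1, where the level was 21.8 and 16.4 with ET-1 and 16.6 and 12.5 with PE, the difference was -0.38 and was not called.

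**Figure D1:**
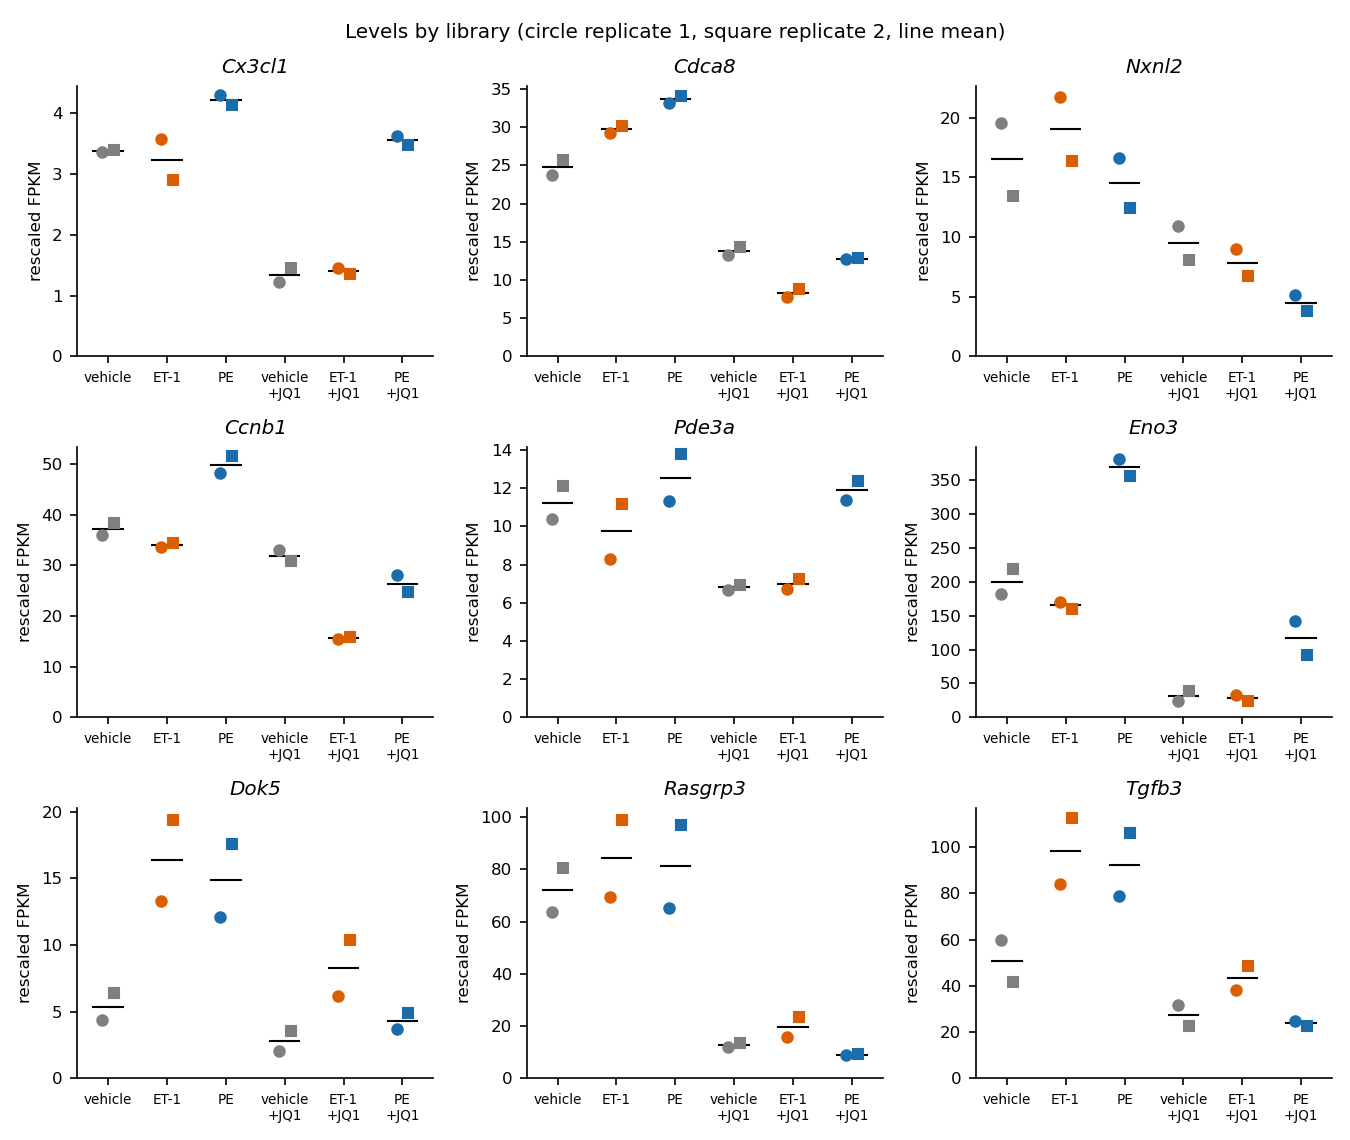
Rescaled FPKM (vertical axis, from 0) of 9 genes in every library of the 6 groups; circles are replicate 1, squares replicate 2 and lines group means. Among the JQ1 libraries, Cx3cl1, Pde3a and Eno3 are highest with PE, Cdca8 and Ccnb1 are lowest with ET-1, and Dok5, Rasgrp3 and Tgfb3 are higher with ET-1 than with PE.

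Of 24 tested cell cycle genes, 17 were higher and 3 lower with PE than with ET-1 in both pairs under JQ1, and none was called. Over all genes the shares in both pairs were 36.9% higher and 30.6% lower. Cdca8 lies outside that list. The genes with the smallest p in the higher direction included Cdca8, Ccnb1 (cyclin B1), Kif2c (a kinesin that removes microtubule ends), Prc1 (which bundles the central spindle), Top2a (DNA topoisomerase II alpha), Nek2l1 (a copy related to the kinase Nek2, whose reads could be split between copies) and Pttg1 (securin). Of these only Cdca8 passed the test. The 150 bases before the start of 4 of them are shown, since many genes of G2 and mitosis carry CCAAT boxes, bound by NF-Y, and a CHR element (TTTGAA), bound by the DREAM and MuvB complexes. The 4 are those with the smallest p among the genes with 1 start in the RefSeq table (Kif2c has 2). Sequences are from RefSeq on GRCr8 and end at the base before the start, with matches in capitals. On the opposite strand the CCAAT box reads ATTGG, while the CHR element reads TTCAAA there.
Cdca8, chr5:142483200-142483349, minus strand: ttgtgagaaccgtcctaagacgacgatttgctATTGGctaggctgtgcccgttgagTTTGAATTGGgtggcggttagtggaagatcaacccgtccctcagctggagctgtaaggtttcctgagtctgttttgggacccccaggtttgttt
Ccnb1, chr2:33655226-33655375, minus strand: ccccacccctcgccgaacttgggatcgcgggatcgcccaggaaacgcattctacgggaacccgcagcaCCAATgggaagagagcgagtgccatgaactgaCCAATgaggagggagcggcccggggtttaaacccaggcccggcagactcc
Prc1, chr1:143659331-143659480, plus strand: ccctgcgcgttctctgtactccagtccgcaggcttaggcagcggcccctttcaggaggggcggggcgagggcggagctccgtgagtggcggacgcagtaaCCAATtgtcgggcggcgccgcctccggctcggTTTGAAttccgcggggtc
Top2a, chr10:84473094-84473243, minus strand: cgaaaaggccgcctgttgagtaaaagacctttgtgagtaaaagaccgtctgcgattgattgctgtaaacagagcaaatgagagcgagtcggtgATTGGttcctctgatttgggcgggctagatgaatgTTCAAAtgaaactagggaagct

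In this window Cdca8 had 2 CCAAT matches and 1 TTTGAA match, and its TTTGAA shares a base with the second CCAAT match. Ccnb1 had 2 CCAAT matches and no TTTGAA, and Prc1 and Top2a had 1 of each. Of the 13 tested genes of G2 and mitosis in the cell cycle list, 11 matched the table, and 8 of these (72.7%) held a CCAAT match and 3 (27.3%) a TTTGAA match. Of the G1 and S phase genes of the list 8 matched, of which 4 held CCAAT and none TTTGAA. Among 8824 tested genes with a promoter in the table, 28.1% held CCAAT and 5.6% TTTGAA. Over all 27457 genes of the table the shares were 25.3% and 10.0%. A match is a run of letters and not a shown site.

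The values of Ccnb1, cyclin B1 of the kinase that starts mitosis, were 15.6 and 15.8 with ET-1 and JQ1, 28.1 and 24.7 with PE and JQ1 and 33.1 and 30.8 with vehicle and JQ1. The groups did not overlap, and the order ET-1, PE, vehicle was the same in both replicates. Its log2 difference between PE and ET-1 was 0.73 ± 0.08 (SE, n = 2 per group; limma, adjusted p = 0.0549), just short of the threshold. Without JQ1 Ccnb1 was 33.7 and 34.4 with ET-1, 48.2 and 51.6 with PE and 36.0 and 38.4 with vehicle, so that PE stood above vehicle there and below it with JQ1. Top2a, which untangles DNA before chromosomes separate, was 15.9 and 13.4 with ET-1 and JQ1 against 25.7 and 21.1 with PE and JQ1 (log2 0.65; limma, adjusted p = 0.0652). Prc1 was 24.7 and 26.5 against 42.8 and 37.6 and Kif2c 6.63 and 5.58 against 10.6 and 8.39. Nek2l1 and Pttg1 had log2 differences of 0.64 and 0.66.

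Over the 24 cell cycle genes with JQ1, 12 were higher and 1 lower at an unadjusted p under 0.05, and the median log2 difference was 0.30 against 0.01 over all genes. At that threshold 5.31% of all genes were higher and 3.75% lower. A split of the list into G2 and mitosis genes and G1 and S phase genes, made after the values were seen, separated them. All 13 G2 and mitosis genes were higher with PE in both pairs, by log2 differences of 0.28 (Aurkb, chosen after its value was seen) to 0.73 (Ccnb1), with a median of 0.46. With JQ1, both ET-1 libraries were below both PE libraries for 11 of the 13 and for 14.8% of all genes tested. Both PE libraries were below both vehicle libraries for all 13 and for 23.5% of all genes. As the split followed the values, these counts are descriptions. Kif20a, a kinesin of cytokinesis, was 15.6 and 12.5 with ET-1 against 26.4 and 18.9 with PE, and Bub1, a kinase of the spindle checkpoint, was 6.58 and 6.16 against 10.6 and 8.45.

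G1 and S phase genes lay around 0 under JQ1. Of 11, 4 were higher and 3 lower with PE in both pairs under JQ1, with a median log2 difference of 0.03. Ccnd1 (cyclin D1, the G1 cyclin that answers to growth factors) was 11.8 and 4.69 with ET-1 against 8.62 and 3.08 with PE, a log2 difference of -0.49 that was not called (limma, adjusted p = 0.326). Tyms, Rrm2 and Mcm4, which serve nucleotide synthesis and replication licensing, had differences of 0.10, 0.21 and 0.12. Without JQ1 the 2 sets lay on opposite sides of 0. There 11 of the 13 G2 and mitosis genes were higher with PE in both pairs (median 0.22), and 10 of the 11 G1 and S phase genes were lower in both pairs (median -0.19). Over all genes 31% were higher and 27.7% lower in both pairs without JQ1. The change of the contrast with JQ1 was positive in the median for both sets, 0.26 and 0.29 against 0.00 over all genes. None of these changes was called, and 2 of the 24 had an unadjusted p under 0.05, as had 2.65% of all genes. The fibroblast marker sum with JQ1 was also higher with PE in both pairs, 519.9 and 114.8 with ET-1 against 651.5 and 127.6 with PE, and its part in the cell cycle differences was not tested.

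**Figure D2:**
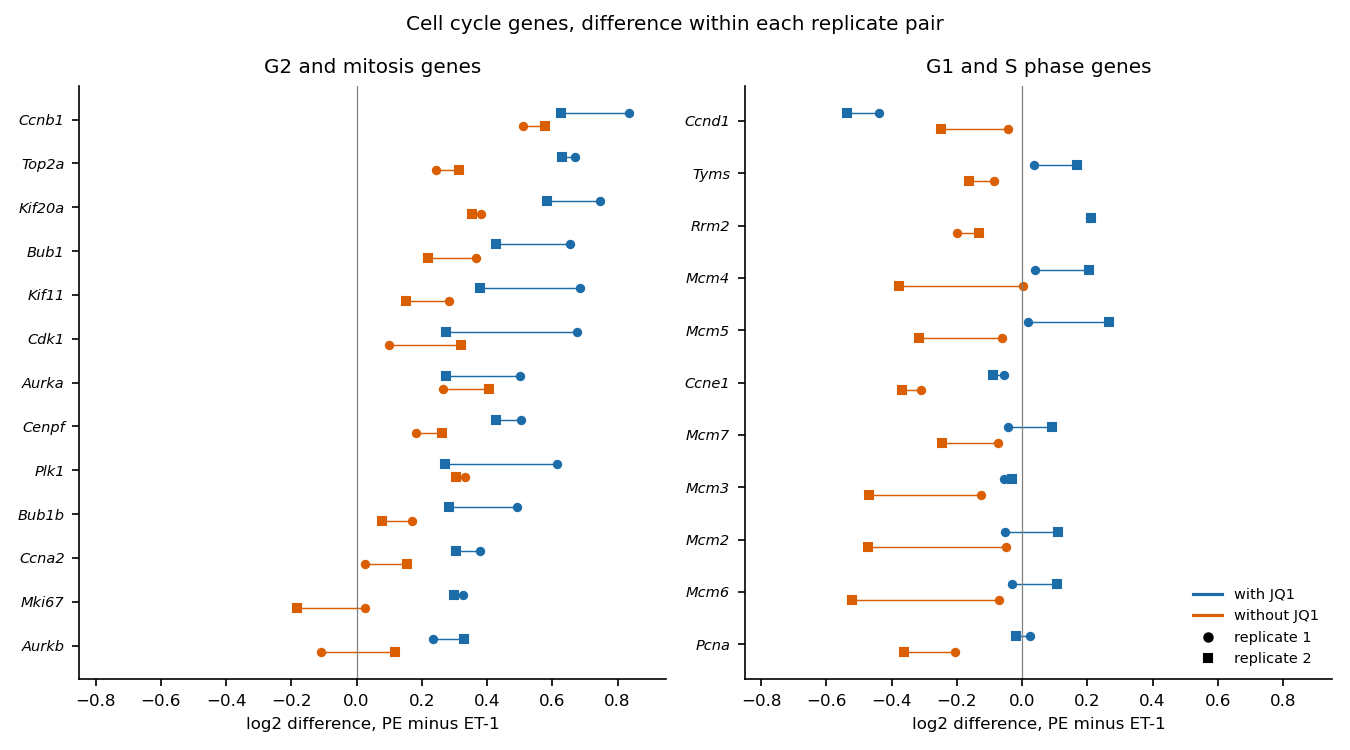
Log2 difference PE minus ET-1 (horizontal axis) within each replicate pair, for 13 G2 and mitosis genes (left) and 11 G1 and S phase genes (right), with JQ1 in blue and without in orange; circles are replicate 1 and squares replicate 2. All blue points on the left are above 0, while on the right 10 of 11 genes have both orange points below 0.

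Genes that answer to cyclic AMP through the factor CREB were mixed. Of 15 tested CREB targets, 8 were higher and 3 lower with PE in both pairs under JQ1, and 6 were higher and 2 lower at an unadjusted p under 0.05. Over all genes 36.9% were higher and 30.6% lower in both pairs, and 5.31% and 3.75% at that threshold. The list's median was 0.09. The 8 higher under JQ1 were Pde3a, Sik1, Nr4a3, Pde4b, Nr4a1, Pde4d, Gem and Nr4a2, and these were also higher in both pairs without JQ1, beside 17.2% of all genes that were higher in all 4 pairs. At an unadjusted p under 0.05 in both contrasts, 5 of the 15 (Pde3a, Sik1, Nr4a3, Pde4b and Nr4a1) and 1.15% of all genes were higher. The list was chosen with earlier results of these data known, so these counts are descriptions. Pde3a, a phosphodiesterase that breaks down cyclic AMP in cardiomyocytes, was 6.74 and 7.24 with ET-1, 11.4 and 12.4 with PE and 6.68 and 6.94 with vehicle, all with JQ1. ET-1 and vehicle libraries overlapped and PE stood above both (log2 0.73 ± 0.09, SE, n = 2 per group; limma, adjusted p = 0.0652). Without JQ1 Pde3a was 8.30 and 11.2 with ET-1 and 11.3 and 13.8 with PE, with a difference of 0.36. Pde4b, another cyclic AMP phosphodiesterase, was 7.10 and 4.41 with ET-1 and JQ1 and 13.1 and 10.6 with PE and JQ1, a log2 difference of 1.00, beside 0.85 without JQ1.

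Sik1, a kinase induced by CREB that holds back its coactivators, was 8.93 and 11.7 with ET-1 and JQ1, 14.0 and 17.5 with PE and JQ1 and 5.69 and 6.82 with vehicle and JQ1. Its difference was 0.59 with JQ1 and 0.49 without. The nuclear receptor Nr4a3 had differences of 0.70 with JQ1 and 0.71 without, at levels of 0.400 to 1.71 in the 4 JQ1 libraries. Nr4a1, a related receptor, was 3.58 and 6.02 with ET-1 and 10.8 and 9.46 with PE, both with JQ1, with differences of 1.04 with and 0.77 without JQ1. Pde4d, a further cyclic AMP phosphodiesterase, was 8.59 and 5.61 against 13.1 and 10.0 with JQ1. Gem and Nr4a2 had differences of 0.15 and 0.09 with JQ1. Bdnf, a neurotrophin with a CREB-driven promoter, had a difference of -0.07 (95% interval -0.51 to 0.38). Nfil3 and Dusp1, named after their values were seen, were the 2 members lower with PE at an unadjusted p under 0.05, with differences of -0.33 and -0.42. Without JQ1 6 of the 15 were higher and 0 lower at that threshold, with a median of 0.25. No CREB target was called in either contrast or in the change between them.

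**Figure D3:**
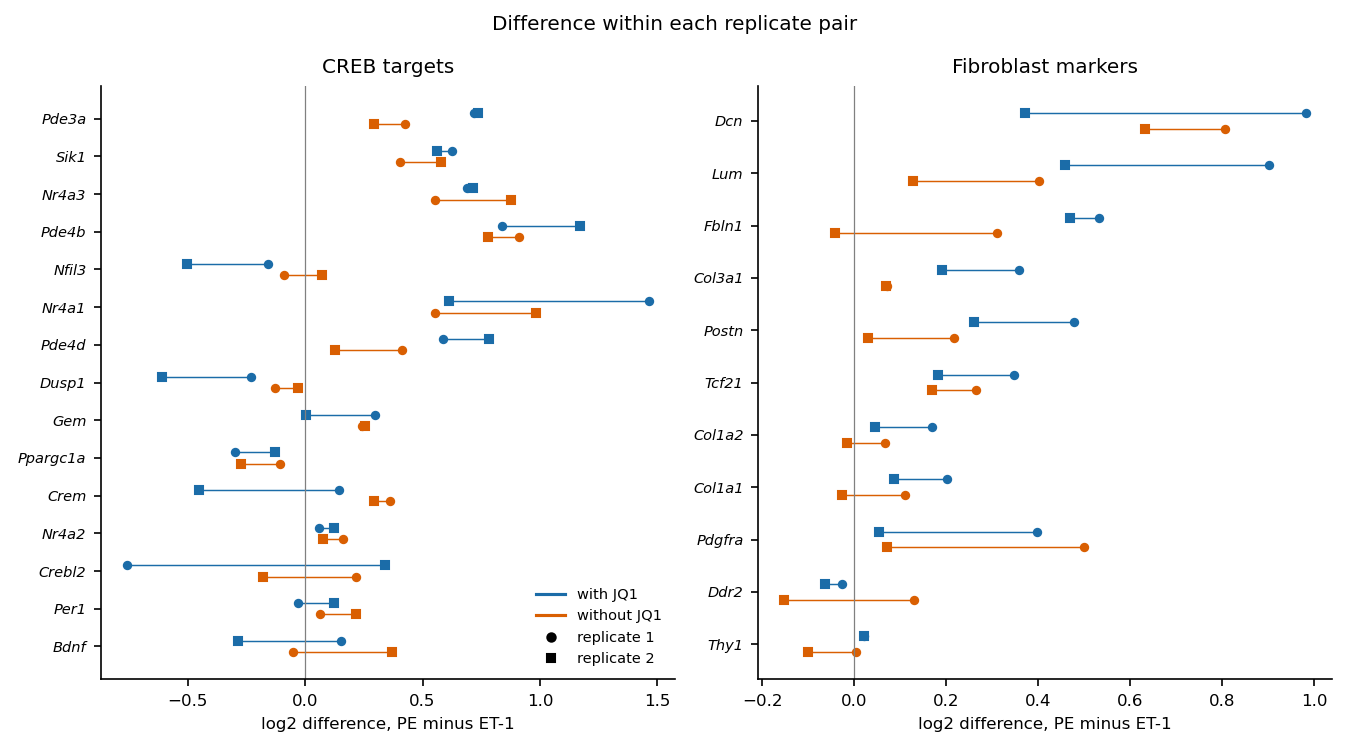
Log2 difference PE minus ET-1 (horizontal axis) within each replicate pair for 15 CREB targets (left) and 11 fibroblast markers (right); JQ1 is blue, no JQ1 is orange, circles are replicate 1 and squares replicate 2. Pde3a, Sik1, Nr4a3, Pde4b, Nr4a1, Pde4d, Gem and Nr4a2 are above 0 in all 4 pairs, and 10 of 11 fibroblast markers are above 0 in both JQ1 pairs.

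Eno3, the muscle enolase of glycolysis, had the largest difference with JQ1 among the genes named here. It was 33.4 and 23.6 with ET-1 and JQ1, 142 and 92.6 with PE and JQ1 and 24.5 and 39.1 with vehicle and JQ1. Both PE libraries were above every other JQ1 library (log2 2.01 ± 0.28, SE, n = 2 per group; limma, adjusted p = 0.0652). Without JQ1 the levels were 170 and 160 with ET-1 and 381 and 357 with PE, a difference of 1.16, so that PE with JQ1 was still below ET-1 without it. Over 22 glycolysis genes with JQ1, 11 were higher and 3 lower in both pairs and 4 were higher and 1 lower at an unadjusted p under 0.05, with a median of 0.14. For this list and the 2 below, the shares over all genes were 36.9% higher and 30.6% lower in both pairs. At the unadjusted threshold they were 5.31% and 3.75%. Gapdh (glyceraldehyde-3-phosphate dehydrogenase) was 116 and 113 with ET-1 against 156 and 150 with PE, and the lactate exporter Slc16a3 was 22.5 and 19.6 against 41.3 and 32.0. Pfkfb2, which makes the activator of phosphofructokinase, was lower, at 7.07 and 7.88 against 5.47 and 5.78. Of 21 fatty acid oxidation genes, 14 were higher and 2 lower in both pairs, with a median of 0.12. Acadm, the medium-chain acyl-CoA dehydrogenase, was 140 and 105 with ET-1 against 195 and 144 with PE. Sterol synthesis genes were higher in 15 of 24 and lower in 2, with a median of 0.09 and none at an unadjusted p under 0.05. No gene of these 3 lists was called.

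Apart from Nxnl2, the genes named by their p as lower with PE than with ET-1 under JQ1 were not called. Dok5, an adaptor of receptor tyrosine kinases, was 6.17 and 10.4 with ET-1, 3.71 and 4.88 with PE and 2.05 and 3.58 with vehicle, all with JQ1. Both ET-1 libraries were the highest of their replicate (log2 -0.84 ± 0.09, SE, n = 2 per group; limma, adjusted p = 0.0549). Without JQ1 the agonists lay close together, at 13.3 and 19.4 with ET-1 and 12.1 and 17.6 with PE, a log2 difference of -0.13. Rasgrp3, a Ras activator recruited by diacylglycerol and thus downstream of Gq, was 16.0 and 23.4 with ET-1, 8.87 and 9.17 with PE and 12.2 and 13.5 with vehicle, all with JQ1. Its difference was -1.06 with JQ1 and -0.06 without, where levels were 69.4 and 99.0 with ET-1 and 65.4 and 97.1 with PE. The change of -1.0 did not pass the test across genes (limma, adjusted p = 1). Dok5 and Rasgrp3 were picked by their p with JQ1, and differences of genes so picked tend to be smaller in the other contrast.

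Tgfb3, a TGF-beta ligand, was 38.2 and 48.6 with ET-1 and JQ1 against 24.9 and 22.8 with PE and JQ1, and 83.9 and 112 against 78.8 and 106 without. Both ET-1 libraries with JQ1 were above both PE libraries with JQ1, with a log2 difference of -0.84 that was not called. Among the other genes named by their p in this direction were Atp1b4, Rassf7, Plekhg2, Ankrd10, Adam33 (a membrane metalloprotease) and Elovl7 (a fatty acid elongase). Their log2 differences ran from -0.31 (Ankrd10) to -0.85 (Atp1b4), with adjusted p-values (limma) of 0.0859 to 0.115.

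The list of ERK feedback genes holds phosphatases and Sprouty and Spred inhibitors of the pathway, and also the ETS transcription factors Etv1, Etv4 and Etv5, which are not inhibitors. Of 14 tested, 2 were higher and 7 lower with PE in both pairs under JQ1, and 0 were higher and 2 lower at an unadjusted p under 0.05, with a median of -0.12. Among all genes tested, 36.9% were higher and 30.6% lower in both pairs, and 5.31% and 3.75% at that threshold. Dusp6, an ERK phosphatase, was 13.7 and 6.48 with ET-1, 9.79 and 3.79 with PE and 6.04 and 3.26 with vehicle, all with JQ1. Spry2, an inhibitor of receptor tyrosine kinase signalling, was 28.8 and 29.8 with ET-1 against 23.6 and 20.5 with PE. Without JQ1 their differences were 0.10 and 0.02. Targets of SRF and YAP, factors that follow actin tension, gave 3 higher and 10 lower of 19 in both pairs, with 4 lower and 0 higher at an unadjusted p under 0.05 and a median of -0.14. These 4 were Amotl2, Tpm4, Ctgf (connective tissue growth factor) and Tagln (transgelin). Ctgf was 238 and 484 with ET-1 and JQ1 and 173 and 243 with PE and JQ1, and Amotl2, which restrains YAP, 108 and 136 against 86.7 and 101. Without JQ1 the list gave 10 higher and 3 lower, with a median of 0.05, beside 31% and 27.7% of all genes. Neither list had a called gene in the change between the contrasts, and 2 members of each had an unadjusted p under 0.05 there. The share of all genes with such a p for the change was 2.65%.

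Fibroblast markers were higher with PE in the same libraries. Of 11 tested, 10 were higher and 1 was lower in both pairs under JQ1, 6 were higher and 0 lower at an unadjusted p under 0.05, and the median was 0.27. Over all genes 36.9% were higher and 30.6% lower in both pairs, and 5.31% and 3.75% at that threshold. Dcn (decorin, a matrix proteoglycan) was 7.63 and 0.965 with ET-1 and 15.6 and 1.39 with PE, and Lum (lumican) 1.94 and 0.229 against 4.06 and 0.502. For both genes the replicates of a group differed more than the agonists did. Without the replicate block 0 of the 11 had an unadjusted p under 0.05. Without JQ1 6 of 11 were higher in both pairs and 1 had an unadjusted p under 0.05, with a median of 0.12. Matrix genes gave 14 higher and 6 lower of 25, and Mmp2, a gelatinase of fibroblasts, was 30.5 and 7.91 with ET-1 and JQ1 against 52.0 and 10.8 with PE and JQ1. The summed level of endothelial markers with JQ1 was 13.6 and 7.25 with ET-1 and 16.0 and 9.02 with PE, and that of macrophage markers 10.3 and 3.90 against 10.1 and 2.95. Smooth muscle and pericyte markers summed to 2230 and 2653 against 2291 and 2383. Epicardial and mesothelial markers were higher with PE in both pairs in 6 of 7 tested, 2 of them at an unadjusted p under 0.05, with a median of 0.26 and sums of 10.9 and 4.89 against 14.9 and 5.80. Schwann and neural markers summed to 16.2 and 9.62 against 19.3 and 10.6, and erythroid markers to 3.33 and 4.14 against 6.23 and 2.72. How far cell makeup enters the differences above was not tested.

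Transcripts of the receptors themselves were not called in the comparison. Adra1a and Adra1b, the alpha-1 receptors through which PE acts, were 2.28 and 2.97 with ET-1 against 2.34 and 2.68 with PE, and 4.09 and 2.75 against 3.55 and 2.73, all with JQ1. The 95% intervals of their log2 differences were -0.43 to 0.34 and -0.51 to 0.33. Adrb1, the main beta receptor of cardiomyocytes, had a difference of 0.06 (95% interval -0.31 to 0.44). Ednra, the ETA receptor, was 6.43 and 2.7 with ET-1, 9.57 and 10.6 with PE and 12.8 and 10.1 with vehicle, all with JQ1. Its difference of 1.17 was not called (limma, adjusted p = 0.366) and was 0.64 without ET-1 and JQ1 replicate 2. Summing covered bases in place of FPKM gave 0.74. Without JQ1 the difference of Ednra was -0.08 (95% interval -0.89 to 0.73). Edn1, the precursor of ET-1, had a difference of -0.40 (95% interval -0.88 to 0.09), and Ednrb was at or below 0.419 in the 4 libraries. Bdkrb2, the bradykinin B2 receptor, was 0.797 and 1.75 with ET-1, 3.85 and 4.36 with PE and 0.212 and 0.322 with vehicle, all with JQ1 (log2 1.43 ± 0.25, SE, n = 2 per group; limma, adjusted p = 0.106). Without JQ1 Bdkrb2 was 4.93 and 8.79 with ET-1 and 7.555 and 17.6 with PE. That difference was 0.765 (95% interval 0.19 to 1.34), and the change with JQ1 had an interval of -0.15 to 1.48.

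Hypertrophy genes, many of which both agonists are known to induce, went both ways and none was called. Of 15 tested, 5 were higher and 4 lower with PE in both pairs under JQ1, and the median was -0.07. Beside these counts, 36.9% of all genes tested were higher and 30.6% lower in both pairs. Nppa (atrial natriuretic peptide) was 7067 and 13780 with ET-1 and 6471 and 10630 with PE, with a 95% interval of its log2 difference of -0.57 to 0.07. For Nppb (B-type natriuretic peptide) the interval was -0.80 to 0.09 and for Acta1 (skeletal actin) -0.38 to 1.21. The pairs of both genes were unlike, with -0.01 and -0.71 for Nppb and 0.68 and 0.15 for Acta1. Ankrd1, a stretch-responsive protein of the sarcomere, had 0.20 (95% interval -0.10 to 0.50), and the differences of Myh6 and Myh7, the alpha and beta myosin heavy chains, were -0.07 and -0.15. Atp2a2, the calcium pump SERCA2, was 517 and 573 with ET-1 against 700 and 772 with PE, and its difference of 0.43 was the only one of the list at an unadjusted p under 0.05. Rcan1, a calcineurin feedback gene, and Sema3c, a guidance factor, had differences of -0.31 and 0.13 with intervals on both sides of 0.

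Among the genes of P-TEFb and BET proteins, 8 of 24 were higher and 7 lower in both pairs under JQ1, with a median of 0.00. The shares over all genes were 36.9% and 30.6%. Hexim1, the inhibitor of P-TEFb that rises when BET proteins are blocked, was 98.2 and 90.2 with ET-1 and JQ1 and 96.1 and 81.0 with PE and JQ1, beside 20.3 and 17.0 and 21.6 and 17.4 without JQ1. Its difference with JQ1 was -0.09 (95% interval -0.38 to 0.20). Cdk9, the kinase of P-TEFb, had an interval of -0.21 to 0.11. Ccnt2 and Larp7, a cyclin of P-TEFb and a 7SK-binding protein, had differences of -0.19 and 0.19 that were not called.

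**Figure D4:**
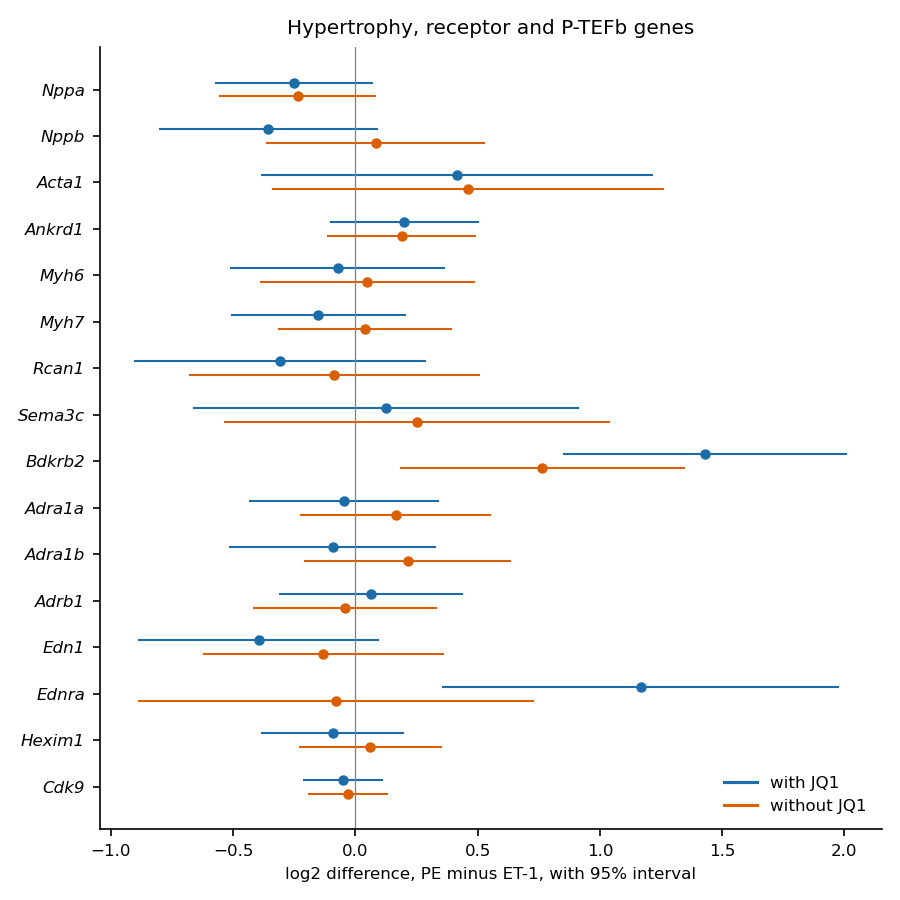
Log2 difference PE minus ET-1 (horizontal axis, points) with its 95% interval (lines) for 16 genes of hypertrophy, receptors and P-TEFb, with JQ1 in blue and without in orange. With JQ1, the intervals of Bdkrb2 (1.43) and Ednra (1.17) lie above 0 and the others include 0.

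Without JQ1 the same comparison gave 0 genes (0%) higher and 1 (0.00725%) lower at an adjusted p under 0.05 (limma). At an unadjusted p under 0.05 there were 345 (2.5%) and 307 (2.23%). On FPKM as deposited that split was 204 higher and 401 lower. In both pairs 4270 (31%) were higher and 3819 (27.7%) lower, and 25 (0.181%) and 22 (0.16%) differed by at least 1.5-fold in both. The gene called was a placeholder of 321 nt with no symbol. Of the 20 genes named here by their p without JQ1, none was called. Their differences under JQ1 kept the direction in both pairs for 10 of 10 higher genes and 9 of 10 lower genes. Over all genes 36.9% were higher and 30.6% lower in both pairs under JQ1. Inka2, Ccnb1, Prc1 and Nxnl2 were named in both contrasts. Of the genes named with JQ1, 10 of 10 higher and 8 of 10 lower kept the direction in both pairs without it. Wif1, a secreted Wnt inhibitor, was 3.15 and 2.38 with ET-1 and 6.51 and 5.09 with PE without JQ1, and 1.46 and 1.18 against 3.17 and 2.34 with JQ1. Nap1l5, a histone chaperone relative, had differences of 0.91 without and 0.57 with JQ1, Spon1 (an extracellular matrix protein) 0.67 and 0.47 and Plat (tissue plasminogen activator) 0.54 and 0.35. Inka2, Ppm1e (a phosphatase of kinases) and Sept6 (a septin of the cytoskeleton) stood at 0.49, 0.47 and 0.50 with JQ1.

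On the lower side, Dnph1 and Nupr2 were the genes whose difference was closest to 0 with JQ1. Dnph1, a nucleotide hydrolase, was 3.28 and 3.37 with ET-1 and 1.77 and 2.11 with PE without JQ1, and 2.10 and 2.77 against 1.81 and 2.93 with JQ1. Nupr2 was 5.51 and 5.42 against 3.06 and 3.59 without, and 16.5 and 15.8 against 16.4 and 14.1 with JQ1. Camk2b, a calcium-dependent kinase, had differences of -0.51 without and -0.55 with JQ1. Actr3b, Apom, Ramp1 (which pairs with the calcitonin-like receptor), Izumo4, Fam81a and Tnnt1 (slow skeletal troponin T) had differences of -0.51 to -0.81 without JQ1 and -0.15 to -0.39 with it. Fos, an immediate early gene, was 5.38 and 5.20 against 8.09 and 9.63 without JQ1 and 5.71 and 6.78 against 6.41 and 8.88 with it. Genes picked for their values in 1 contrast tend to be smaller in the other, so these pairs of values are descriptions.

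Whether a difference appeared or vanished was tested as the change of the contrast with JQ1. At an adjusted p under 0.05 (limma), 1 gene (0.00725%) was more positive with JQ1 and 0 (0%) more negative, and the gene was the same placeholder. At an unadjusted p under 0.05, 209 (1.52%) were more positive and 157 (1.14%) more negative, 366 (2.65%) in all. Idi1 and Mvd, of sterol synthesis, had changes of -0.06 and 0.18. Of the 1250 genes with an unadjusted p under 0.05 with JQ1, 221 (17.7%) also had it without JQ1 in the same direction. These were 33.9% of the 652 found there and 1.6% of all genes tested, and 9 genes had it in the opposite direction. Both contrasts used the same fitted spread of each gene, so a gene with a small spread tends to pass in both. This overlap is thus a description and no independent repeat. Of the 1250, 83.1% had the same sign without JQ1, beside 64.7% of all genes tested. Across all 13793 genes, which are not independent replicates, the 2 fitted contrasts, which share replicate numbers but no library, had Pearson 0.25 and Spearman 0.384. Between the 2 replicate pairs within JQ1 these were 0.0742 and 0.476, and within DMSO 0.0933 and 0.254. The agreement of the contrasts with and without JQ1 was uneven, with Spearman 0.447 in replicate 1 and 0.107 in replicate 2.

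**Figure D5:**
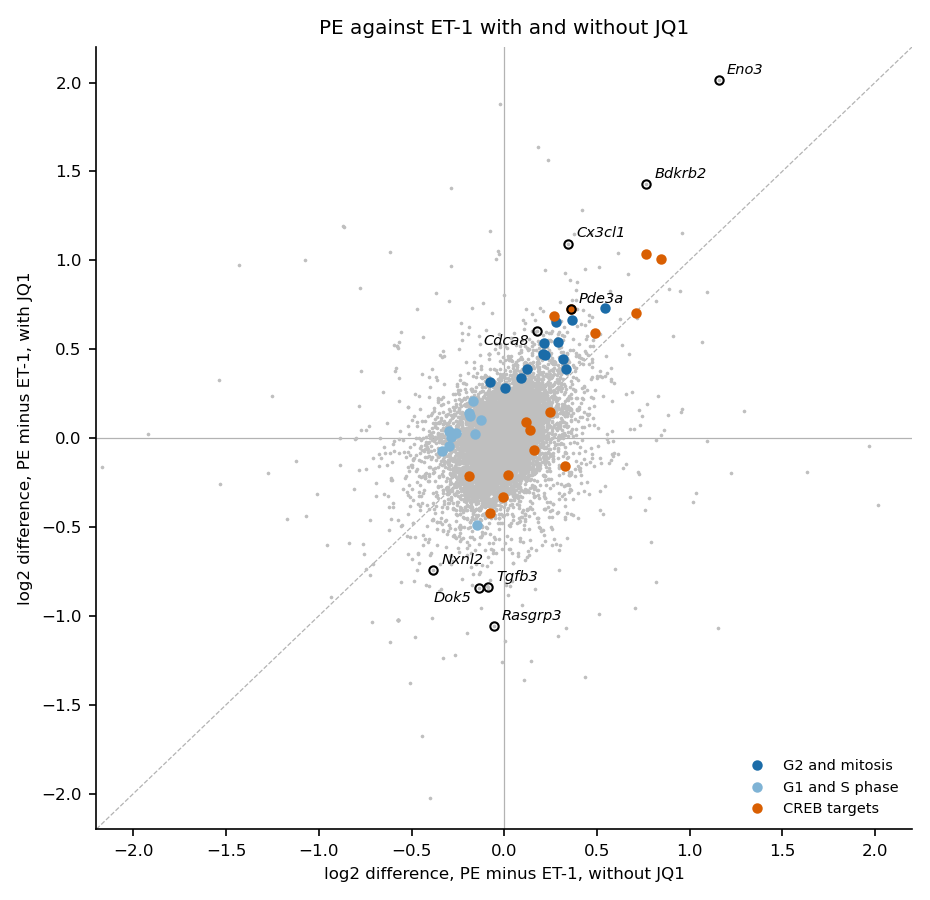
Log2 difference PE minus ET-1 without JQ1 (horizontal axis) and with JQ1 (vertical axis), 1 point per gene; 13777 of 13793 genes lie within the axes, the dashed line marks equal values, and coloured points are G2 and mitosis genes, G1 and S phase genes and CREB targets. Eno3, Cx3cl1 and Bdkrb2 lie above the dashed line, while Rasgrp3, Tgfb3 and Dok5 lie near 0 on the horizontal axis and at -0.84 to -1.06 on the vertical axis. Apart from Bdkrb2, these genes were picked by their p with JQ1. Bdkrb2 is of the fixed set, chosen with earlier results of these data known, so all these positions are descriptions.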

How the data were processed

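The deposited tables gave each transcript's coverage (signal per base) and FPKM, per the file headers. DESeq2 1.24.0, StringTie 1.3.4d, STAR 2.7.1a and Trim Galore 0.6.0 are named per the submitters' processing notes, with build rn6. Libraries were stranded and depleted of ribosomal RNA, per the labels' protocols. Strand handling in the assignment of reads was not given in the sources used here, which leaves overlapping genes and near-identical copies uncertain.

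FPKM of 41078 transcripts was summed over 32883 genes and rescaled by the median of ratios (factors 0.8733 to 1.1275). Genes at 1 or more in at least 2 libraries (13793) were tested on log2(rescaled FPKM + 0.5) with limma 3.58.1 (R 4.3.3; trended, robust variances): 6 group means with the replicate number as a block, all 12 libraries, 5 residual degrees of freedom, Benjamini-Hochberg adjustment within a comparison, threshold 0.05. The labels do not say what the replicate number stands for. Same-numbered libraries deviated together (Pearson 0.155 to 0.671 over 15 pairs of groups, 0.631 for PE and ET-1 with JQ1). A single value in 2 against 2 libraries cannot go below an exact two-sided permutation p of 0.33, and marker sums are given as levels and were not tested. The code was tested on simulated data. FPKM carry no counting error, so no depth interval is given.

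Genes were named by rule: per contrast and direction the called genes, filled up to 10 by smallest p; the called genes of the change; a fixed set of receptor, hypertrophy and P-TEFb genes; and per list the called members and up to 4 others by p; some of these genes are not reported here. The members and lists were chosen with earlier results of these data known. Alternatives varied the block, pseudocount, filter, scaling, variance moderation and libraries; covered bases in place of FPKM were added after seeing the data. Promoters are RefSeq's on GRCr8, matched by symbol.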

Additional observations from a re-analysis of the deposited data

Results flagged for a closer look

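The placeholder AABR07034673.1 (321 nt, no symbol, singled out after its values were seen) differed between the contrasts with and without JQ1. Without JQ1 it was 2.50 and 2.33 rescaled FPKM with ET-1 and 2.30 and 2.35 with vehicle and was listed at 0 in both PE libraries, and it was listed at 0 in all 6 libraries with JQ1. The change of the contrast was 2.54 on the log2(rescaled FPKM + 0.5) scale (limma, adjusted p = 0.0053), in both replicate pairs. Since it is listed at 0 in every JQ1 library, the change is that of the DMSO libraries, and a listed 0 can be a failed estimate.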

How the results depend on the processing

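With JQ1, 3 genes were called; this became 0 without the replicate block, without a filter on low values and without trended or robust variances, 1 on FPKM as deposited and on the compared libraries only, 9 among genes of 400 nt or more, and 0 to 2 on leaving out 1 library. The setting of 400 nt or more also scaled the libraries to equal sums in place of the median of ratios, here and below. Without JQ1, 1 call became 9 with no filter, 0 at 5 rescaled FPKM or at 400 nt or more, 2 on FPKM as deposited, 244 on the compared libraries only (1 residual degree of freedom), and 1 to 5 on leaving out 1 library. For the change between contrasts, 1 call became 0 without the block, at 5 rescaled FPKM, at 400 nt or more and on the compared libraries only, 6 with no filter, and 0 to 3 on leaving out 1 library. Genes at an unadjusted p under 0.05 numbered 1250 with JQ1, 471 without the block, 2966 on the compared libraries and 744 to 1418 on leaving out 1 library. Without JQ1 the 652 became 206 without the block, 1072 with no filter, 1705 on the compared libraries and 426 to 735. For the change, 366 became 117, 723 and 551 under the same 3 settings and 255 to 693. Fibroblast markers higher with PE went from 6 to 0 without the block and 3 to 5 on leaving out 1 library; cell cycle genes stayed at 10 to 14 and CREB targets at 4 to 6. The causes were not tested.

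On leaving out 1 library, 10 named genes that were not called crossed 0: Dnph1 from -0.24 to 0.14, Nupr2 from -0.22 to 0.058, Adra1a from -0.25 to 0.15, Adra1b from -0.30 to 0.12, Adrb1 from -0.19 to 0.32, Myh6 from -0.17 to 0.028, Sema3c from -0.11 to 0.36, Bdnf from -0.37 to 0.24, Idi1 from -0.021 to 0.60 and Rcan1 from -0.76 to 0.15 (log2, with JQ1). No named gene changed sign under any other alternative run.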

Other observations

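Other lists under JQ1 held no called gene. Of 14 NF-kB and chemokine genes, 7 were higher and 4 lower with PE in both pairs, with a median of 0.10. The shares over all genes were 36.9% and 30.6%. Vcam1, an adhesion molecule, was 1.25 and 1.91 rescaled FPKM with ET-1 and 1.65 and 3.62 with PE, and Nfkbiz, an NF-kB cofactor, 2.62 and 2.39 against 3.94 and 3.38, while Icam1 was 7.79 and 2.52 against 6.48 and 1.70. Immediate early genes were mixed: Jun was 28.3 and 50.7 with ET-1 against 35.7 and 58.2 with PE, and Maff, a small Maf factor, 5.54 and 4.89 against 3.68 and 3.05.

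Among 21 sarcomere genes, 12 were higher and 4 lower in both pairs under JQ1, with a median of 0.16, beside 36.9% and 30.6% of all genes. Tnni3, cardiac troponin I, was 562 and 590 with ET-1, 741 and 875 with PE and 852 and 1563 with vehicle, all with JQ1, and Myoz2, a Z-disc protein that binds calcineurin, was 201 and 237 with ET-1 against 170 and 164 with PE. Of 23 calcium and ion handling genes, 9 were higher and 7 lower, beside the same shares of all genes. Sln (sarcolipin, an inhibitor of the calcium pump) was 86.0 and 167 with ET-1 against 67.0 and 148 with PE, and Cacnb2, a calcium channel subunit, 38.5 and 30.4 against 49.4 and 40.3. Unfolded protein response genes were higher with PE in both pairs in 13 of 19 without JQ1 (median 0.12) and in 5 of 19 with JQ1 (median 0.01). Over all genes these shares were 31% and 36.9%. The median change of the contrast was -0.10, and 0 of the 19 had an unadjusted p under 0.05 for it.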
